A study of Homo sapiens with 6 samples.

Results

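RANBP2 and 7 RGPD genes (RGPD1, RGPD2, RGPD3, RGPD4, RGPD5, RGPD6 and RGPD8) were described in polyadenylated RNA of SW480, a long-established line of human colon adenocarcinoma cells. The 8 members were taken by name from the 28307 gene symbols of the deposited tables. They were chosen with the contrast between the groups already known, because RGPD6 was among its calls, so their levels are given as a description and carry no test. Both groups were made by lentiviral transduction and antibiotic selection, with 3 separately made lines in each. The Clover lines carried pLENTI CMV Clover, a fluorescent protein that served as the control. The Z18trunc lines carried pLENTI CMV Z18trunc, a truncated form of ZC3H18, which is a zinc finger protein that links capped RNA to nuclear RNA surveillance. In both groups the CMV promoter drove the insert in cells that kept their own ZC3H18 gene.

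RANBP2, also called NUP358, is the large nucleoporin of the cytoplasmic filaments of the nuclear pore. It binds the GTPase Ran and transport receptors as cargo leaves or enters the nucleus, and it acts as a SUMO E3 ligase. The RGPD genes arose by duplication of RANBP2 along chromosome 2, and their name stands for RANBP2-like and GRIP domain containing. Their coding sequence joins RANBP2 sequence to the end of GCC2, a Golgi protein whose GRIP domain binds small GTPases at the trans-Golgi network. Because several copies are almost the same, a sequenced fragment from one copy often matches others as well.

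The copies are shown first as sequence, because the printed letters show which of them a fragment can tell apart. Coding sequences were taken from the GENCODE 44 transcript with the longest coding sequence of each gene. RANBP2 has 9675 coding bases and the RGPD genes have 5271 to 5493. The coding bases of RGPD5 were the same as those of RGPD6 at all 5298 aligned positions, and RGPD6 carries 195 further bases in its longest form. RGPD8 differed from RGPD5 at 10 of 5298 positions. RGPD1 and RGPD2 differed from each other at 3 of 5271 positions. Over the 21 pairs of RGPD genes the identity ran from 97.5% to 100%. Against RANBP2 the 7 genes ran from 97.7% to 98.2%, with 2928 consecutive RANBP2 coding bases absent from every copy.

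The next lines give 60 coding bases from exon 20, read 5′ to 3′ on the strand of each gene from hg38, with capitals at bases that differ from RANBP2. The stretch was picked by a search for the window with the most different versions among 6 members. RANBP2 is at chr2:108766270-108766329 (+), RGPD5 at chr2:109835924-109835983 (+), RGPD6 at chr2:110535524-110535583 (-), RGPD8 at chr2:112390083-112390142 (-), RGPD1 at chr2:86985681-86985740 (+) and RGPD3 at chr2:106425102-106425161 (-).
RANBP2: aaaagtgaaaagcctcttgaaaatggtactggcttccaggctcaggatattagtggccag
RGPD5: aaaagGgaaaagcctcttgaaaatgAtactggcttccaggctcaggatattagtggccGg
RGPD6: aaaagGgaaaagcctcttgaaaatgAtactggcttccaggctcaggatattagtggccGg
RGPD8: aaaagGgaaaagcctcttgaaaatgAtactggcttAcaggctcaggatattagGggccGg
RGPD1: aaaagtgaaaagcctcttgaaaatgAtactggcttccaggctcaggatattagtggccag
RGPD3: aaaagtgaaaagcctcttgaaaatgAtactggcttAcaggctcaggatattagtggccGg
RGPD5 and RGPD6 had the same 60 letters, whereas RGPD8 differed from them at 2 and RGPD1 and RGPD3 also at 2 each.

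The part that sets the RGPD genes apart from RANBP2 lies at the end of the coding sequence. Coding bases 4921 to 5297 of RGPD5 aligned with bases 4642 to 5018 of GCC2, and 7 of these 377 bases differed, an identity of 98.1%. The lines below give 60 bases from exon 21 of each gene, with capitals at the 4 bases that differ. RGPD5 is at chr2:109845165-109845224 (+) and GCC2 at chr2:108497032-108497091 (+) in hg38.
RGPD5: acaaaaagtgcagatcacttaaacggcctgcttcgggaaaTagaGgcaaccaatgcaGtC
GCC2: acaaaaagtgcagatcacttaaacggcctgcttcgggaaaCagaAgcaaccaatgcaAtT

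Every member transcript was then cut into windows of 150 bases, close to the median stretch of 165 to 166 bp that a single fragment covered at a locus of the deposited repeat tables. For RGPD5, 0 of 7119 windows were free of a match in another member, and all of them occurred in RGPD6 transcripts. RGPD6 had 4.01% of its windows to itself, RGPD2 had 8.05%, RGPD1 had 8.65% and RGPD8 had 16.0%. RGPD3 and RGPD4 had 50.4% and 54.1%, and RANBP2 had 93.4%. The gene bodies, introns included, had the same members at both ends of the order, since 0.466% of the windows of the RGPD5 gene body and 91.9% of those of RANBP2 were found in no other member. RefSeq promoter windows of 300 bases (GRCh38.p14) were at hand for 5 of the 8 members. The longest run of letters shared by the RGPD5 and RGPD6 windows had 263 bases, whereas RGPD8 shared 65 and RANBP2 shared 16 with RGPD5.

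Levels were read as TPM (a level per transcript length that sums to 1000000 in each library), summed over all rows of a symbol. For members, their sums and places, a log2 difference is that of the group means of TPM after adding 1, Z18trunc minus Clover. RANBP2 was listed at 9.00, 6.57 and 8.05 TPM in Clover replicates 1 to 3 and at 9.43, 9.05 and 16.5 TPM in Z18trunc replicates 1 to 3. The groups did not overlap, but the lowest Z18trunc library lay just above the highest Clover library and replicate 3 lay far above the rest. The means were 7.87 ± 1.23 and 11.7 ± 4.21 TPM (SD, n = 3), a log2 difference of 0.51. Without Z18trunc replicate 3 it was 0.21. In bulk RNA, more cells with a transcript and more transcript per cell cannot be told apart.

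RGPD8 and RGPD5 encode proteins with Ran binding domains and a GRIP domain. RGPD8 was listed at 4.65, 1.13 and 4.11 TPM in Clover and at 5.34, 6.69 and 9.47 TPM in Z18trunc. RGPD5 was listed at 3.13, 0 and 2.96 TPM in Clover and at 4.95, 3.83 and 6.30 TPM in Z18trunc. Neither symbol overlapped between the groups, and Clover replicate 2 was the lowest library for both. The log2 difference was 0.93 for RGPD8 and 0.99 for RGPD5, and without Clover replicate 2 it was 0.60 and 0.58. RGPD5 was 1 of 43 tested genes (0.323%) listed at 0 in exactly 1 library.

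RGPD6, the copy whose coding bases match RGPD5, had the opposite pattern. It was listed at 1.95, 2.71 and 2.16 TPM in Clover and at 0.0894, 0.0903 and 0.290 TPM in Z18trunc. Every Z18trunc library lay below every Clover library, and the highest Clover value was that of replicate 2, in which RGPD5 was listed at 0. The means were 2.28 and 0.157 TPM, a log2 difference of -1.50. RGPD6 passed the filter on low levels (a mean of at least 1 TPM) only through its Clover libraries. These values sum its rows, and in the row at the RGPD6 gene itself the groups overlapped, as given below.

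The other 4 members were listed at lower levels and overlapped between the groups. RGPD3 was listed at 0.989, 1.08 and 0.914 TPM in Clover and at 1.46, 0.990 and 1.96 TPM in Z18trunc. RGPD1 was listed at 1.14, 0.564 and 0.748 TPM in Clover and at 1.43, 0.970 and 2.03 TPM in Z18trunc. For both, Z18trunc replicate 2 fell inside the Clover range and replicate 3 was the highest library. RGPD4 was listed at 0.603, 0.267 and 0.408 TPM in Clover and at 0.462, 0.614 and 1.18 TPM in Z18trunc. RGPD2 was listed at 0.533 TPM in Clover replicate 2 and at 0 in the other 5 libraries. That value came from a row at the RGPD1 gene, where the RGPD1 row was at 0 in the same library. At the RGPD2 gene itself 0.424 to 0.987 TPM was listed in every library, all of it under the symbol RGPD1. RGPD4 and RGPD2 stayed under a mean of 1 TPM and did not enter the fit over all genes.

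**Figure D1:**
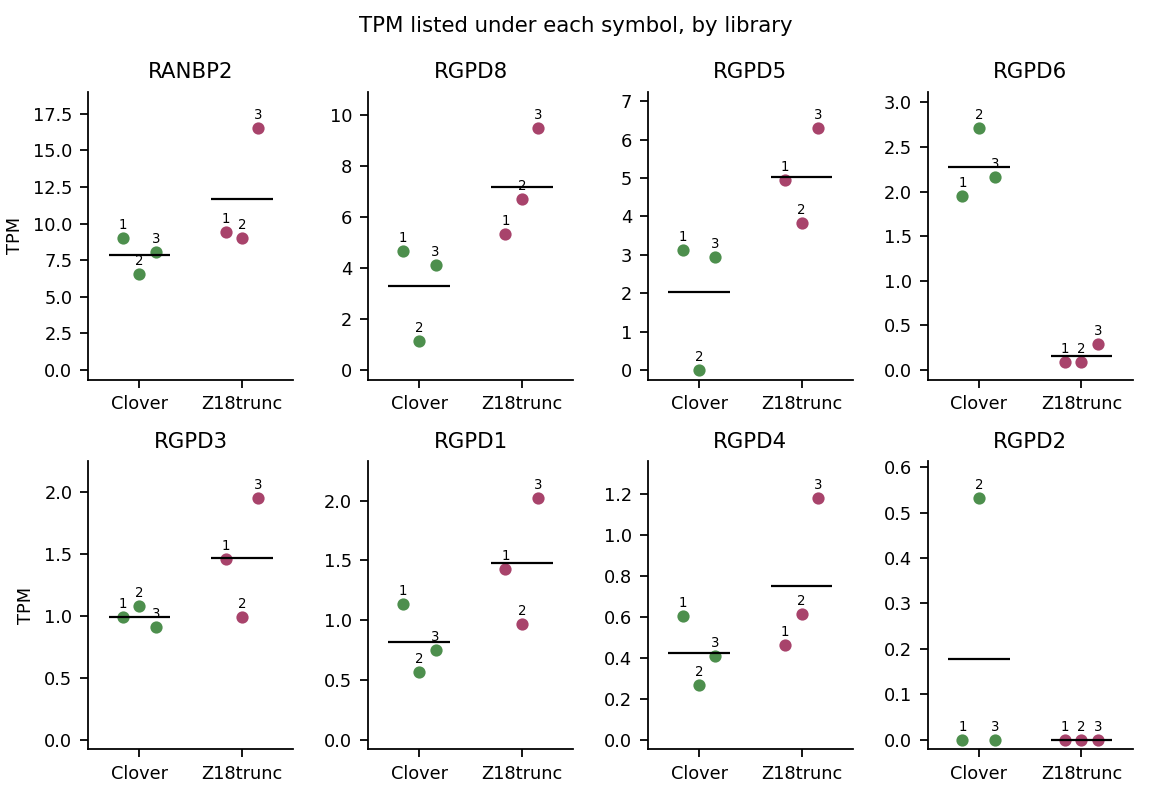
TPM of each member in each library (y axis, linear, scaled per gene), with Clover in green and Z18trunc in purple. Numbers are replicates and lines are group means. RANBP2, RGPD8 and RGPD5 were higher in every Z18trunc library than in any Clover library, RGPD6 was lower in every Z18trunc library, and the other 4 members overlapped or were listed at 0.

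In Clover the order of the mean levels was RANBP2, RGPD8, RGPD6, RGPD5, RGPD3, RGPD1, RGPD4 and RGPD2. Only RANBP2 was separated from its neighbour in that order, and all later neighbours overlapped in range. In Z18trunc RGPD6 stood next to last, between RGPD4 and RGPD2, with a range that overlapped neither.

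Of the 6 members in the fit over 13300 genes (limma on log2 of TPM + 1, adjusted p under 0.05), 1 was called, RGPD6. Over all genes 2 were called (0.015%), RGPD6 among them. This was the contrast by which the members were chosen, so the RGPD6 call was not read further. It was lost in 10 of the 11 alternative fits that held RGPD6, the replicate block and each left-out library among them, and kept with an intensity trend. Of the 6, 3 had groups without overlap and Z18trunc higher, where 30.1% of all genes did. One member, RGPD6, had groups without overlap and Z18trunc lower, where 6.73% of all genes did. It was chosen through this contrast, so that count was not read further either.

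The rows of 5 of the 8 symbols lie at more than 1 place. RGPD5 and RGPD8 each have rows at 3 places, and RGPD6, RGPD1 and RGPD2 at 2. Among all symbols 7.57% have rows at more than 1 place, and on the main chromosomes 1.85% do. The 15 member rows lie at 8 places, each of which holds 1 of the 8 genes, so the TPM was also summed by place, a choice made after the rows were seen.

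At the place of RGPD5 (hg38, chr2:109760439-109857705, + strand) the rows of RGPD5, RGPD6 and RGPD8 overlap. They summed to 3.72, 2.71 and 3.58 TPM in Clover and to 3.99, 4.12 and 6.06 TPM in Z18trunc. The RGPD6 row held 1.08, 2.71 and 1.19 TPM of these sums in Clover and 0.0432, 0.0476 and 0.226 TPM in Z18trunc. Thus the summed level at this place was higher in every Z18trunc library while the row named RGPD6 was lower in every one. In Clover replicate 2 the RGPD6 row held 100% of the TPM at this place.

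At the place of RGPD6 (chr2:110513802-110611056, - strand) the same 3 symbols summed to 3.33, 0 and 3.25 TPM in Clover and to 3.49, 3.66 and 5.61 TPM in Z18trunc. Here too every Z18trunc library was above every Clover library, with a log2 difference of 0.72 where the symbol alone gave -1.50. The size of 0.72 leans on the 0 in Clover replicate 2, with which the Clover mean was 2.20 ± 1.90 TPM (SD). The RGPD6 row held 0.877, 0 and 0.972 TPM of these sums in Clover and 0.0463, 0.0427 and 0.0641 TPM in Z18trunc. In this row the groups overlapped, with Clover replicate 2 the lowest library. At the place of RGPD8 (chr2:112368369-112433645, - strand) the sums were 2.68, 1.13 and 2.40 TPM in Clover and 2.91, 2.83 and 4.40 TPM in Z18trunc. By place the log2 difference was 0.40 at RGPD5 and 0.51 at RGPD8, smaller than by symbol. The rows differ in span, since those named RGPD6 run over 97267 and 97255 bases whereas the RGPD5 rows at these places run over 64948 and 64931.

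**Figure D2:**
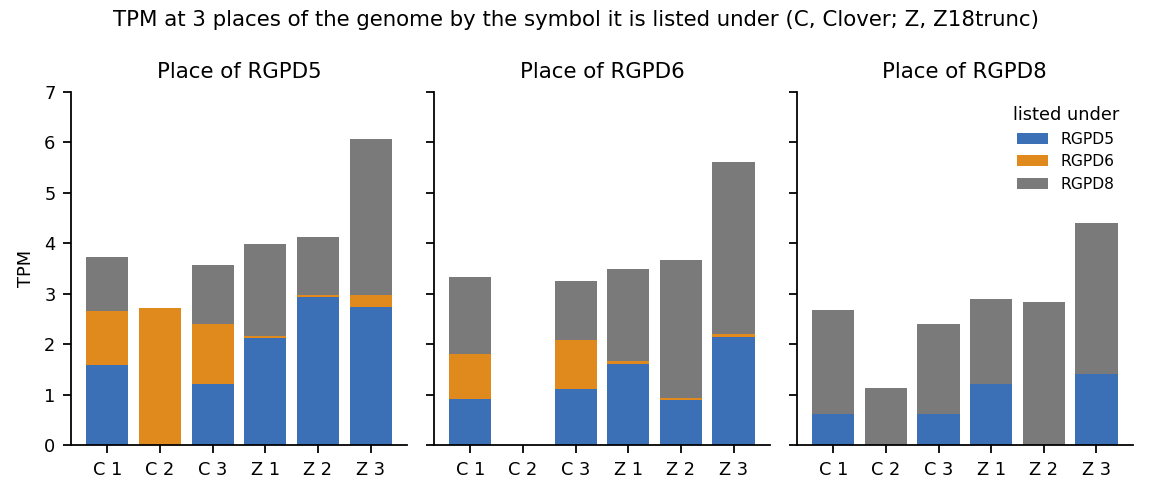
TPM (y axis) at the places of RGPD5, RGPD6 and RGPD8 in the 3 Clover (C) and 3 Z18trunc (Z) libraries, stacked by the symbol of the row. The orange part named RGPD6 reached 2.71 TPM in Clover replicate 2 and at most 0.226 TPM in Z18trunc, whereas the whole bars were higher in every Z18trunc library than in any Clover library at each place.

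RGPD6 made up 20.1%, 70.6% and 23.4% of the TPM of RGPD5, RGPD6 and RGPD8 in Clover and 0.862%, 0.851% and 1.80% in Z18trunc. The sum of RGPD5 and RGPD6 was 5.08, 2.71 and 5.12 TPM in Clover and 5.04, 3.92 and 6.59 TPM in Z18trunc. These groups overlapped, and the log2 difference of the sum was 0.22, or 0.02 without Clover replicate 2 and 0.05 without Z18trunc replicate 3. With RGPD8 added, the sum was 9.73, 3.84 and 9.23 TPM in Clover and 10.4, 10.6 and 16.1 TPM in Z18trunc, without overlap.

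The sum of all 7 RGPD genes was 12.5, 6.28 and 11.3 TPM in Clover and 13.7, 13.2 and 21.2 TPM in Z18trunc. All Z18trunc libraries were above all Clover libraries, with Clover replicate 2 far below and Z18trunc replicate 3 far above the others. The means were 10.0 ± 3.29 and 16.1 ± 4.50 TPM (SD, n = 3), a log2 difference of 0.63. Without Clover replicate 2 it was 0.40, and without Z18trunc replicate 3 it was 0.39. The ratio of the RGPD sum to RANBP2 was 1.25 ± 0.253 in Clover and 1.40 ± 0.0993 in Z18trunc, and these ranges overlapped.

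The copies were then read by fragments that lie on annotated repeats within each gene body, on the strand of the gene. The deposited repeat tables give uniquely mapped fragments as whole counts, and an estimated count that also shares out multiply mapped fragments. In RGPD5 4 of 255.57 estimated fragments over the 6 libraries were unique (1.57%), in RGPD1 2 of 66.89 (2.99%) and in RGPD6 6 of 200.25 (3.00%). Among 12930 gene bodies the median unique share was 75.5%, and 110 (0.851%) lay under 10%. RGPD8 had 44 unique fragments (23.5%), RGPD3 had 10 (28.7%), RGPD2 had 24 (29.2%), RGPD4 had 30 (51.6%) and RANBP2 had 138 (75.5%). The 4 RGPD genes with the fewest transcript windows to themselves were RGPD5, RGPD6, RGPD2 and RGPD1, of which RGPD2 had a larger unique share than the other three.

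**Figure D3:**
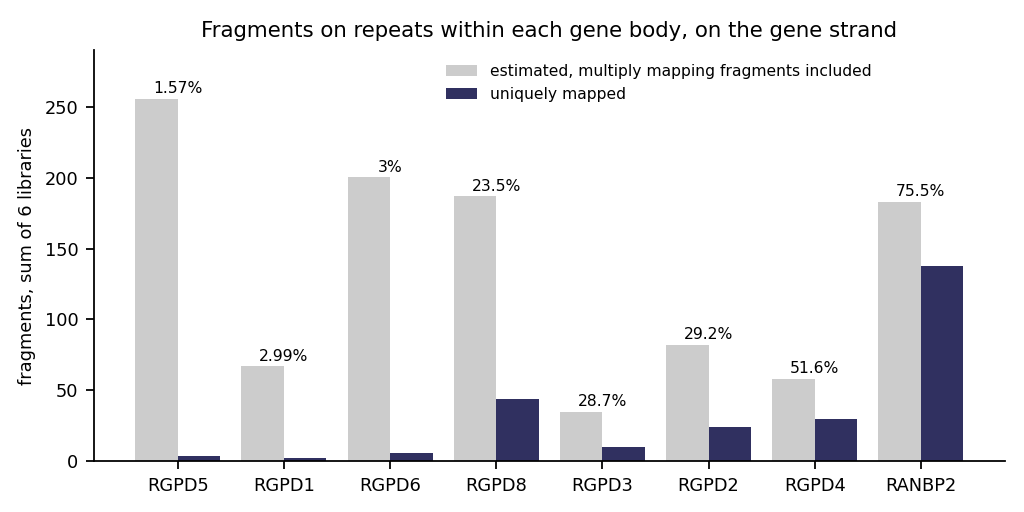
Fragments on repeats within each gene body (y axis, sum of 6 libraries), as estimated counts (grey) and uniquely mapped counts (blue), with the unique share in percent above each pair. RGPD5, RGPD1 and RGPD6 had 4, 2 and 6 unique fragments, whereas RANBP2 had 138 of 182.87.

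One repeat is given base by base. An AluJb element of 136 bases lies within an annotated untranslated exon part of RGPD4, RGPD5, RGPD6 and RGPD8. Its copies in RGPD5, RGPD6 and RGPD8 were identical, and the RGPD4 copy differed from them at 1 base. The lines give the 30 bases around that base on the gene strand, with the base in capitals. RGPD4 is at chr2:107891224-107891253 (+), RGPD5 at chr2:109856367-109856396 (+), RGPD6 at chr2:110515111-110515140 (-) and RGPD8 at chr2:112369678-112369707 (-) in hg38.
RGPD4: gaggctggagaatcgTttgaggctagtgag
RGPD5: gaggctggagaatcgCttgaggctagtgag
RGPD6: gaggctggagaatcgCttgaggctagtgag
RGPD8: gaggctggagaatcgCttgaggctagtgag
At the RGPD4 copy 28 of 37.78 estimated fragments were unique. Fragments can reach past the element, and whether the 1 base or the flanking sequence made them unique was not tested. The RGPD5 copy had 1 unique of 30.86, the RGPD6 copy 0 of 22.38 and the RGPD8 copy 0 of 23.98. The estimated counts of the RGPD5 copy were 12.61, 2.82 and 6 in Clover and 5.62, 3.81 and 0 in Z18trunc. Those of the identical RGPD6 copy were 0, 3.78 and 6 in Clover and 0, 3.60 and 9 in Z18trunc. Identical letters thus received 12.61 fragments at one copy and 0 at the other in Clover replicate 1, and 0 and 9 in Z18trunc replicate 3.

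Over the whole gene body the estimated fragments of RGPD6 were 27.8, 31.6 and 28.2 in Clover and 22.7, 38.7 and 51.3 in Z18trunc, so the groups overlapped. Those of RGPD5 were 52.3, 26.7 and 36.5 in Clover and 43.5, 39.0 and 57.6 in Z18trunc, also with overlap. The TPM under the symbol RGPD6, which takes in a row at the RGPD5 place, lay below Clover in all Z18trunc libraries. These fragments, from repeats in the RGPD6 gene body alone, did not, and neither did the TPM summed at the RGPD6 place. In Clover replicate 2 that place was listed at 0 TPM, whereas its gene body had 31.6 estimated fragments.

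RGPD4, RGPD8 and RANBP2 had at least 30 unique fragments and entered a fit over 11984 gene bodies (edgeR, aligned fragments as library size, adjusted p under 0.05). Of these 3 members, 0 were called, where 1.84% of all gene bodies were. RANBP2 had 26, 20 and 7 unique fragments in Clover and 26, 27 and 32 in Z18trunc, from 18226033 to 22463310 aligned fragments per library. Scaled to the library, its groups did not overlap and Z18trunc was higher, as in 19.3% of all gene bodies. This separation was a near tie. The highest Clover and the lowest Z18trunc library both had 26 fragments, of 22463310 and 22454103 aligned fragments. The log2 ratio was 0.70, and the median over all gene bodies was 0.25. Without Clover replicate 3 the ratio was 0.33, and for loci outside annotated exons it was 0.38. RGPD8 had 7, 4 and 6 in Clover and 14, 8 and 5 in Z18trunc, with overlap. Counts this small limit what can be seen in a single copy, and a count of 0 allows up to 3 counts, which is 0.134 to 0.165 CPM (counts per 1000000 aligned fragments).

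The level of long transcripts differed between the libraries. The longest GENCODE transcripts of the members run from 6770 bases (RGPD2) to 11708 bases (RANBP2). Over the 12820 tested genes with a transcript length in GENCODE (480 had none) the median log2 difference of Z18trunc minus Clover was -0.01 for transcripts under 2000 bases, 0.24 for 6000 to below 8000 bases and 0.29 for 8000 bases and over. In Clover replicate 2 minus the other libraries it was 0.03, -0.32 and -0.38 for the same classes. In Z18trunc replicate 3 it was 0.01, 0.18 and 0.23. All 8 places were highest in Z18trunc replicate 3, which was the highest library of 30.4% of tested genes, and 5 were lowest in Clover replicate 2, which was the lowest library of 47.8% of tested genes. Taken relative to the median of genes of at least 6000 bases, an alternative chosen after the values were seen, the log2 difference of the RGPD sum was 0.36. The part of transcript length in the member values was not tested.

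**Figure D4:**
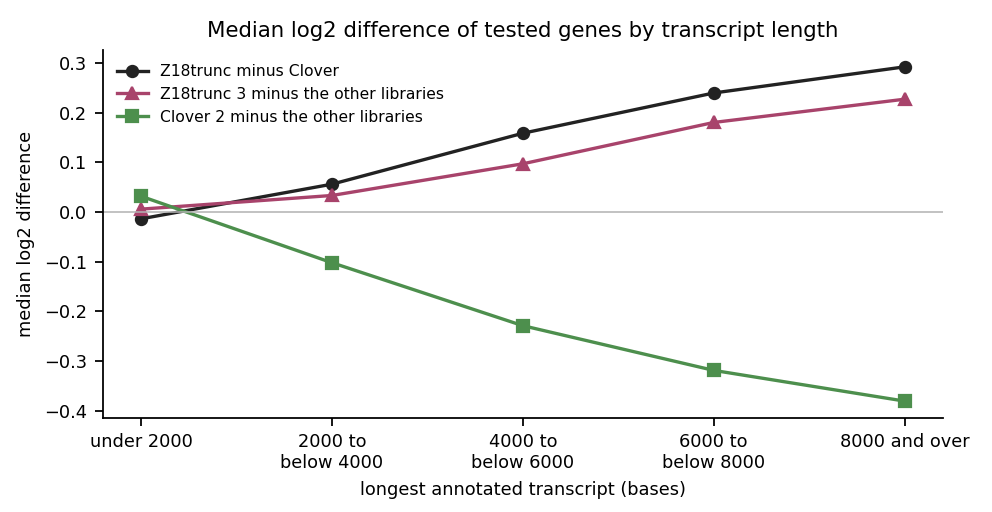
Median log2 difference of tested genes (y axis) by the length of the longest annotated transcript (x axis), for Z18trunc minus Clover and for Clover replicate 2 and Z18trunc replicate 3 each minus the mean of the other libraries. From the shortest to the longest class the group difference went from -0.01 to 0.29, and Clover replicate 2 went from 0.03 to -0.38.

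Genes of the pathways that RANBP2 serves were taken from lists and tested in the fit over all genes, whose log2 differences are between group means of log2(TPM + 1), for list genes and neighbours alike. Of 32 nucleoporins, which form the pore, 0 were called by limma with Benjamini-Hochberg adjustment. Before adjustment, 15 had a p under 0.05 with Z18trunc higher and 0 with Z18trunc lower, beside 25.6% and 2.9% of all genes. Their median log2 difference was 0.28, beside 0.11 over all genes tested. The lists were not matched for transcript length, by which the median ran from -0.01 (under 2000 bases) to 0.29 (8000 bases and over). With the filter raised to a mean of 5 TPM, 1 of the 32 was called, NUP58 of the central channel, where 4.75% of all genes were. The adjusted p of NUP58 in that fit was 0.0486 by limma, just under the limit. NUP58 was listed at 24.3, 18.8 and 23.5 TPM in Clover and at 32.0, 32.6 and 32.6 TPM in Z18trunc, without overlap. Its log2 difference was 0.53 ± 0.11 (SE) with an adjusted p of 0.077 by limma over all genes. NUP98, a nucleoporin with FG repeats, had a log2 difference of 0.52 and an adjusted p of 0.086 in the same limma fit.

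Of 29 tested Ran cycle genes and karyopherins, the receptors that carry cargo through the pore, 0 were called. Before adjustment 16 of the 29 had a p under 0.05, each with Z18trunc higher, beside 25.6% of all genes. Their median log2 difference was 0.27. With the filter at a mean of 5 TPM 6 of 29 were called, beside 4.75% of all genes. These 6 had the same adjusted p by limma, 0.0486, just under the limit of 0.05, and 0.0773 in the fit over all genes. With an intensity trend in limma 1 of 29 was called, the import receptor KPNB1 (importin beta), beside 0.451% of all genes. KPNB1 was listed at 88.0, 78.5 and 90.0 TPM in Clover and at 116, 116 and 126 TPM in Z18trunc, without overlap. IPO11 and IPO7, which are import receptors too, had log2 differences of 0.61 and 0.54, each with an adjusted p of 0.077 by limma. RAN itself, the GTPase that RANBP2 binds, had a log2 difference of 0.01.

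Of 16 SUMO pathway genes, which attach and remove the modifier, 0 were called. Before adjustment 5 of the 16 had a p under 0.05, each with Z18trunc higher, beside 25.6% of all genes. The median log2 difference was 0.16. SENP5 and SENP1, which cleave SUMO from proteins, both had a log2 difference of 0.41, with adjusted p of 0.080 and 0.171 by limma. With the filter at a mean of 5 TPM 1 of 13 genes was called, beside 4.75% of all genes, and this was UBA2, a subunit of the SUMO activating enzyme. The adjusted p of UBA2 in that fit was 0.0486 by limma, just under the limit.

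Of 4 golgins with a GRIP domain, 0 were called. Before adjustment 1 of the 4, GOLGA1, had a p under 0.05, with Z18trunc higher, beside 25.6% of all genes. GOLGA4 was listed at 4.85, 5.30 and 4.09 TPM in Clover and at 5.37, 5.40 and 11.3 TPM in Z18trunc. GCC2, the source of the GRIP end of the RGPD genes, was listed at 4.87, 4.21 and 3.36 TPM in Clover and at 4.62, 4.96 and 8.26 TPM in Z18trunc. As in RANBP2, replicate 3 was the highest library by far, and GCC2 overlapped between the groups. After quantile normalization, under which the median over all genes tested was -0.01, the medians of the nucleoporin, Ran, SUMO and golgin lists were 0.12, 0.22, 0.08 and 0.21.

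**Figure D5:**
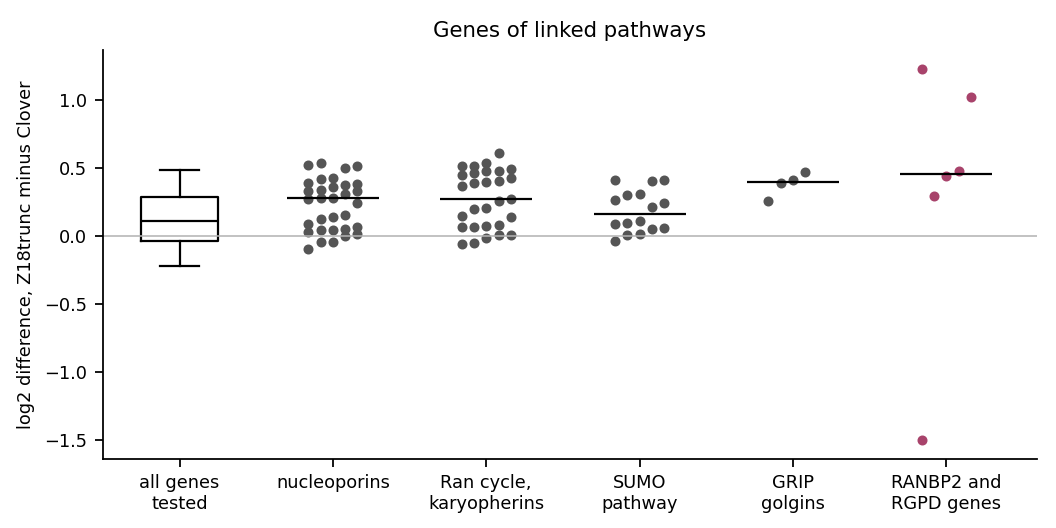
Difference between group means of log2(TPM + 1), Z18trunc minus Clover (y axis), for each tested gene of 4 pathway lists and for the 6 tested members, beside a box of all 13300 genes (median, quartiles, whiskers at the 5th and 95th percentiles). Lines are list medians of 0.28, 0.27, 0.16 and 0.40, and RGPD6 stands alone at -1.50 among the members.

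The genes around the members were described next. Spans within 250 kb of a member held 33 other genes with a mean of at least 1 TPM, and 0 of them were called by limma. Before adjustment 13 had a p under 0.05, of which 12 were higher in Z18trunc, and 14 had groups without overlap and Z18trunc higher. Over all genes tested 25.6% had a p under 0.05 with Z18trunc higher, and 30.1% had no overlap and Z18trunc higher. The median log2 difference of these neighbours was 0.17, beside 0.11 over all genes tested. BUB1, a spindle checkpoint kinase gene near RGPD6, was listed at 35.0, 30.8 and 39.8 TPM in Clover and at 45.4 TPM or more in Z18trunc, with an adjusted p of 0.084 by limma. EDAR, a receptor gene, and LIMS1, an adaptor gene of cell adhesion, lie on either side of RANBP2 and had groups without overlap and adjusted p of 0.126 and 0.093 by limma. THNSL2, near RGPD2, was the 1 neighbour with groups without overlap and Z18trunc lower.

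Among 9971 genes with a mean of at least 5 TPM, the profile most like that of RANBP2 was that of SMC2, with a root mean square difference of 0.0648 over the z-scored values of 6 libraries. SMC4 and TOP2B followed at 0.0703 and 0.0736. SMC2 was listed at 10.8, 8.54 and 9.88 TPM in Clover and at 11.1, 10.6 and 18.1 TPM in Z18trunc, so that replicate 3 stood out as it did in RANBP2. For the RGPD sum the closest were TMEM167A, RAI14 and PPA1, at 0.110, 0.133 and 0.136. For RGPD6 they were TEDC1, DNPEP and KRT81, at 0.0618, 0.151 and 0.159. TEDC1 was listed at 33.1, 35.1 and 34.0 TPM in Clover and at 27.7, 27.8 and 28.3 TPM in Z18trunc, a far smaller ratio than that of RGPD6.

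The labels were checked against ZC3H18 and cell markers. ZC3H18 was listed at 51.3 to 61.8 TPM in Clover and at 739 to 798 TPM in Z18trunc, a level that does not separate the insert from the cells' own gene. Of 12 colon epithelial markers, 8 were at or above 10.1 TPM in every library, among them EPCAM, KRT8, KRT18, CDX2 and VIL1. KRT20, CDX1 and LGR5 were listed at 0 in every library, and CDH17 at 0.0345 TPM in Clover replicate 2 and at 0 elsewhere. The summed TPM of the list was 23488 to 25096 in Clover and 23047 to 24158 in Z18trunc. Of 10 markers of other cell types, PTPRC, PECAM1, COL3A1, DCN and MLANA were listed at 0 in every library. CD68 was listed at 2.75 to 4.48 TPM, PMEL at 1.42 to 3.60 TPM and COL1A1 at 1.14 to 1.55 TPM. VWF was listed at 0.229 to 0.503 TPM, and CD3E at 0.321 TPM or less. The list summed to 6.80 to 7.88 TPM in Clover and 6.48 to 9.46 TPM in Z18trunc.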

How the data were processed

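PolyA-selected, stranded libraries of 3 Clover and 3 Z18trunc SW480 lines were analysed, with groups and replicate numbers from the sample titles. The authors trimmed reads with cutadapt 4.6 and ran SQuIRE on hg38. The deposited gene tables (StringTie layout) hold TPM and FPKM for each symbol at each place, and the deposited repeat tables give unique counts and expected counts (estimated, with multiply mapped fragments shared out) per RepeatMasker locus. How the gene tables shared multiply mapped reads among copies is not given in the sources used here. Depth was 18226033 to 22463310 aligned fragments per library. Replicates differed by more than sampling noise (a chi-square over its degrees of freedom between 1.73 and 2.33 for unique counts).

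Here TPM was summed by symbol, and by place for the members. Genes with a mean of at least 1 TPM were tested with limma 3.58.1 on log2(TPM + 1), with adjustment over 13300 genes, and fold changes are on that scale, which understates changes of low genes. Unique counts of loci within GENCODE 44 gene bodies, on the gene strand, were summed per gene. Bodies with at least 30 counts went into edgeR 4.0.16 (quasi-likelihood F-test, R 4.3.3), with aligned fragments as library size, and with DESeq2 1.42.0 as an alternative. Estimated counts were rounded for tests. Coding sequences were aligned with Biopython 1.88 (local alignment). On simulated data limma recovered 98% of 200 changed genes among 13300 with a log2 change of 1.5, and edgeR 97.5% of 200 among 11984 with a log2 change of 2. Of the calls, 4.39% and 4.41% were of unchanged features. The changed genes had mean levels above that of every member, and the changed gene bodies had more counts than RGPD4 and RGPD8. Recovery at levels as low as these was not tested. The study's 3 lines per group were made separately. Counting limits cover counting error only, since fragments carry no molecular identifiers.

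The members and lists were chosen with earlier results of these data known. Named genes were the members, the 2 genes per list with the largest difference at a mean of at least 5 TPM, genes within 250 kb of a member at a mean of at least 1 TPM, the 3 most alike profiles, and ZC3H18. Of the neighbours and list genes, BUB1, EDAR, LIMS1, THNSL2, RAN, KPNB1, UBA2 and GOLGA1 were picked for the text after their values were seen. Alternatives were another pseudocount, filter, scaling, tool or unit, leaving out each library, and a replicate block.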

Additional observations from a re-analysis of the deposited data

How the results depend on the processing

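The log2 difference of the RGPD sum stayed positive under every alternative run, from 0.36 to 0.80, and from 0.39 to 0.80 when 1 library was left out. RANBP2 ran from 0.21 to 0.66. RGPD6 was -3.21 with a pseudocount of 0.1, -0.98 in FPKM and -1.59 to -1.40 without 1 library. It turned to 0.72 when TPM was summed by place, where Clover replicate 2 was listed at 0. RGPD2 turned from -0.24 to 0.21 by place, and RGPD5, RGPD8 and RGPD1 went from 0.99, 0.93 and 0.45 to 0.40, 0.51 and 0.22. The cause of these moves was not tested, except that summing by place takes in rows of other symbols.

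Of 13300 genes 2 were called in the fit as reported, 1 with a pseudocount of 0.1, 1 with every gene above 0 TPM, 1 after quantile normalization and 1 with a replicate block. An intensity trend gave 60 (56 higher), and a mean of at least 5 TPM gave 474 (453 higher) of 9973. Leaving out 1 library gave 1 to 4 calls, with 4 without Clover replicate 2 and 1 without Z18trunc replicate 1. At a mean of at least 5 TPM 1 nucleoporin, 6 Ran genes and 1 SUMO gene were called, and with the trend 1 Ran gene. Of the gene bodies 221 were called (220 higher), 110 with estimated counts, 53 with a replicate block, 5 with TMM scaling (2 higher) and 96 of 832 with an adjusted p in DESeq2 (6 higher). TMM moved the median of all gene bodies from 0.25 to 0.01. Leaving out 1 library gave 14 to 270, with 25 without Clover replicate 2, 42 without Clover replicate 3, 14 without Z18trunc replicate 2 and 96 without Z18trunc replicate 3. RGPD4 unique fragments gave a log2 ratio of 0.52, and its estimated fragments -0.24.

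Same-numbered libraries did not deviate together (correlations of -0.04, 0.02 and -0.04 over 13300 genes), so the numbers were not taken as pairs. With the block the RGPD sum was 0.65. RGPD1, RGPD5 and RGPD6 held 2 to 6 unique fragments, 1.57% to 3.00% of their estimated fragments, too few to show a difference in a single copy.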

Other observations

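The repeat tables held more estimated fragments on the opposite strand than on the gene strand for 2 of the 8 members, RGPD1 and RGPD2, whereas the other 6 had 1.16 to 15.05 opposite to the gene. Within the RGPD2 gene body 71 unique and 229.93 estimated fragments lay opposite to the gene over the 6 libraries, beside 24 and 82.20 on its own strand. Within the RGPD1 gene body 30 unique and 157.59 estimated fragments lay opposite, beside 2 and 66.89 on its own strand.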
